A study of Homo sapiens with 22 samples.

Results

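The CpG-rich single-direction promoters are the 8138 start sites, of 19111 protein-coding start sites on chromosomes 1 to 22, whose surroundings are rich in CpG and which have no neighbour pointing the other way. Each start site was the 5′ end of a protein-coding gene in GENCODE version 44. A start site was a member when the 500 bp on either side in hg38 had a CpG observed/expected ratio of at least 0.6 and a GC content of at least 55%, and when no protein-coding start site of the other strand lay within 1 kb. The rule uses sequence and annotation only and no insertion. The comparison classes were the 8377 single-direction start sites that miss either sequence threshold, called CpG-poor here, and the 2596 start sites with an opposite neighbour, called bidirectional.

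The study recorded where a piggyBac transposon entered the genome of K562, an established human erythroleukemia line. Every culture received the barcoded donor transposon Barcoded-PBase-SRT-Puro, a self-reporting transposon with puromycin resistance, together with a helper plasmid that expresses the transposase. The helper was hyPBase, a hyperactive piggyBac transposase, in 10 libraries and hyPBase-centrip in the other 10, and the sources used here do not describe how the latter differs. Cells were electroporated, held in puromycin at 2 ug/ml for 11 days and pooled by 3 transfections per dish, and the insertions were read from RNA. In neither group was the transposase labelled as fused to a transcription factor. The labels do not settle whether libraries came from wholly separate transfections, so the p-values below measure the spread between libraries, part of which may be technical. The labels contradict each other on the helper of 2 further libraries, which entered no comparison. An untransfected or donor-only control was not analysed here, and gene expression was not measured.

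In a self-reporting transposon, RNA made from inside the element extends past its end into host sequence, and sequencing that RNA locates the element. The piggyBac transposase integrates at TTAA. CpG-rich promoters serve most housekeeping genes and many developmental regulators. They are usually free of DNA methylation, start transcription over a broad stretch rather than at 1 base and often emit short transcripts in the opposite direction. At silent developmental genes the same kind of promoter is commonly covered by Polycomb complexes.

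These promoters have few sites for piggyBac to use. The members held a median of 84 CpG dinucleotides in the window of 500 bp on either side, against 19 at CpG-poor start sites, a contrast that the rule itself fixes. The median number of TTAA there was 1, against 3. No TTAA at all lay within 500 bp of 30.5% of members, and none lay within 1 kb of 410 of them (5.04%). The promoter sequences, 5′ to 3′ on the strand of the gene from 250 bp before to 50 bp after the start site, show this composition. They are given for the member with the densest insertions (REV3L), for a member with 10 TTAA sites within 1 kb and no insertion (C3orf14) and for the gene of a blood regulator (TAL1), with each CpG in capitals.
REV3L promoter, chr6:111483666-111483965, minus strand: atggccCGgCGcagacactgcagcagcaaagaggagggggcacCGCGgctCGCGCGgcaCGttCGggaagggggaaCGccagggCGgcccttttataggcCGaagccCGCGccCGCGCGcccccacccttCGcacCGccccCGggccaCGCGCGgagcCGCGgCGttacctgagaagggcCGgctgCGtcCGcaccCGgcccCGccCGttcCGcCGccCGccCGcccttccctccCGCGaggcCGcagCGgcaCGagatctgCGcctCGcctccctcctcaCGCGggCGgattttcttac
C3orf14 promoter, chr3:62318765-62319064, plus strand: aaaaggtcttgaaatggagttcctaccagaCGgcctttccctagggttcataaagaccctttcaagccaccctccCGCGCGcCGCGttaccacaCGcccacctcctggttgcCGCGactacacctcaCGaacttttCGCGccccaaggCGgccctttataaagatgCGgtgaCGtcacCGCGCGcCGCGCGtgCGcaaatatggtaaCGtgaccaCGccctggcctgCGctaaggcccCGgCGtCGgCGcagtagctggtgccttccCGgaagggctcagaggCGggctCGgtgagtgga
TAL1 promoter, chr1:47232176-47232475, minus strand: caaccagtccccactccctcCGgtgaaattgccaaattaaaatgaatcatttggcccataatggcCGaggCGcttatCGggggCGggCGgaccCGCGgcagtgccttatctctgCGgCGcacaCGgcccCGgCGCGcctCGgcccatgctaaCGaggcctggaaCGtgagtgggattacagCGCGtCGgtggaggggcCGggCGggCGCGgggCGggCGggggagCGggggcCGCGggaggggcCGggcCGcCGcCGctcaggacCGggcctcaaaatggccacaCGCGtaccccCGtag
The REV3L stretch holds 46 CpG and no TTAA, the C3orf14 stretch 32 and none, and the TAL1 stretch 37 CpG and 1 TTAA.

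With few sites, 1 TTAA can hold a large part of the insertions of a member. Among the 10 densest members the site with the most insertions held from 26.4% of them at EXO1 to 86.5% at DDX21. The 120 bases around the TTAA with the most insertions are given below for 5 members whose values follow, with TTAA in capitals and the site itself at the centre.
REV3L, chr6:111484404-111484523, minus strand: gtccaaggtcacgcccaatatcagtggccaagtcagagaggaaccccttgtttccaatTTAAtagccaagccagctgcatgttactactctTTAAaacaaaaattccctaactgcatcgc
CD46, chr1:207751049-207751168, plus strand: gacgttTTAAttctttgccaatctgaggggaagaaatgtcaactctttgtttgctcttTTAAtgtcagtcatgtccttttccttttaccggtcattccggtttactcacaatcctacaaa
DDX21, chr10:68955749-68955868, plus strand: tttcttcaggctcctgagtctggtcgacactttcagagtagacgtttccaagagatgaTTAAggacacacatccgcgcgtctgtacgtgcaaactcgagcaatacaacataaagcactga
TAL1, chr1:47232378-47232497, minus strand: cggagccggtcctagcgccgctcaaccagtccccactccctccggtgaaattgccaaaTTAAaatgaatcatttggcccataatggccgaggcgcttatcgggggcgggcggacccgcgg
CDT1, chr16:88802848-88802967, plus strand: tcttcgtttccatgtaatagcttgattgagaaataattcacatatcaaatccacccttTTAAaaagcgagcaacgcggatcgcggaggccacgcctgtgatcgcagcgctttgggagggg
The REV3L site lies at -748 bp from the start site, a negative distance being upstream, and took 605 of the member's 1423 insertions. The CD46 site, at -928 bp, took 720 of 1120. At DDX21 the site at -326 bp took 521 of 602 insertions (86.5%), and at CDT1 the site at -881 bp took 276 of 306 (90.2%). The TAL1 site lies at -212 bp, inside the promoter stretch printed above, and all 68 of its insertions had the orientation opposite to the gene.

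Depth was 1509672 to 3596762 insertions per library. From 27458 to 64191 per library fell within 1 kb of a member, an insertion near several members being counted for each. Over the 20 libraries, with each insertion counted once, 1.81% of those on chromosomes 1 to 22 lay within 1 kb of a member. These stretches hold 0.232% of the TTAA sites. Of those 41821 sites, 75.6% were hit at least once, against 48.96% of all TTAA sites. Replicate 3 of hyPBase-centrip stood apart from the other libraries of its helper in several measures, and results that it moves are given without it as well. Near start sites, libraries with consecutive numbers shared 1.02 ± 0.016 times as many insertions of the same position, orientation and barcode as chance overlap would give (SD, 18 pairs). The ratio was 0.974 ± 0.0111 in the other pairs of the same helper (SD, 72 pairs) and 0.968 ± 0.00382 between helpers (SD, 100 pairs).

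Insertions were several-fold denser at the members than in the genome. Density is given throughout as enrichment, the insertions per TTAA site divided by the insertions per TTAA site over chromosomes 1 to 22 of the same library, so that 1 is the genome mean. Within 1 kb of the start sites it was 7.88 ± 0.214 with hyPBase (SD, n = 10), with a lowest library at 7.54, a median of 7.85 and a highest at 8.26. With hyPBase-centrip it was 7.82 ± 0.290 (SD, n = 10), from 7.54 over a median of 7.77 to 8.59, the last being replicate 3. All 20 libraries were above 1, and in each helper p was 0.00195 by an exact permutation test that flips signs, the smallest value that 10 libraries allow. The library groups overlapped almost fully, and the difference of -0.0565 ± 0.114 (SE) between helpers was within the spread between libraries (permutation test, adjusted p = 0.645). Insertions near members were also read more deeply, with 1.23 ± 0.0327 times (hyPBase) and 1.23 ± 0.0480 times (hyPBase-centrip) the reads per insertion of chromosomes 1 to 22 (SD, n = 10 each, exact sign-flip p = 0.00195 in each).

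The excess was steep and lopsided. In the core, within 0.5 kb of the start site, hyPBase gave an enrichment of 9.13 ± 0.357 and hyPBase-centrip 9.16 ± 0.481 (SD over 10 libraries). It was 6.05 ± 0.0958 and 5.89 ± 0.127 in the near upstream window, 0.5 to 2 kb before the start site. In the near downstream window, 0.5 to 2 kb after it, the values were 4.72 ± 0.127 and 4.61 ± 0.0681. The far windows, 2 to 5 kb away, still held 2.84 ± 0.0337 and 2.83 ± 0.0493 upstream and 2.67 ± 0.0418 and 2.60 ± 0.0373 downstream. On the log2 scale the core exceeded the mean of its near flanks by 0.77 ± 0.0518 with hyPBase and 0.81 ± 0.0632 with hyPBase-centrip. The near upstream window exceeded the near downstream window by 0.36 ± 0.0265 and 0.35 ± 0.0268. Both differences had the same sign in every library (exact sign-flip p = 0.00195 in each helper). The core value weighs its upstream side more, because more TTAA sites lie there. The bin 500 to 400 bp upstream held 2989 sites and the bin 400 to 500 bp downstream 1019.

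**Figure D1:**
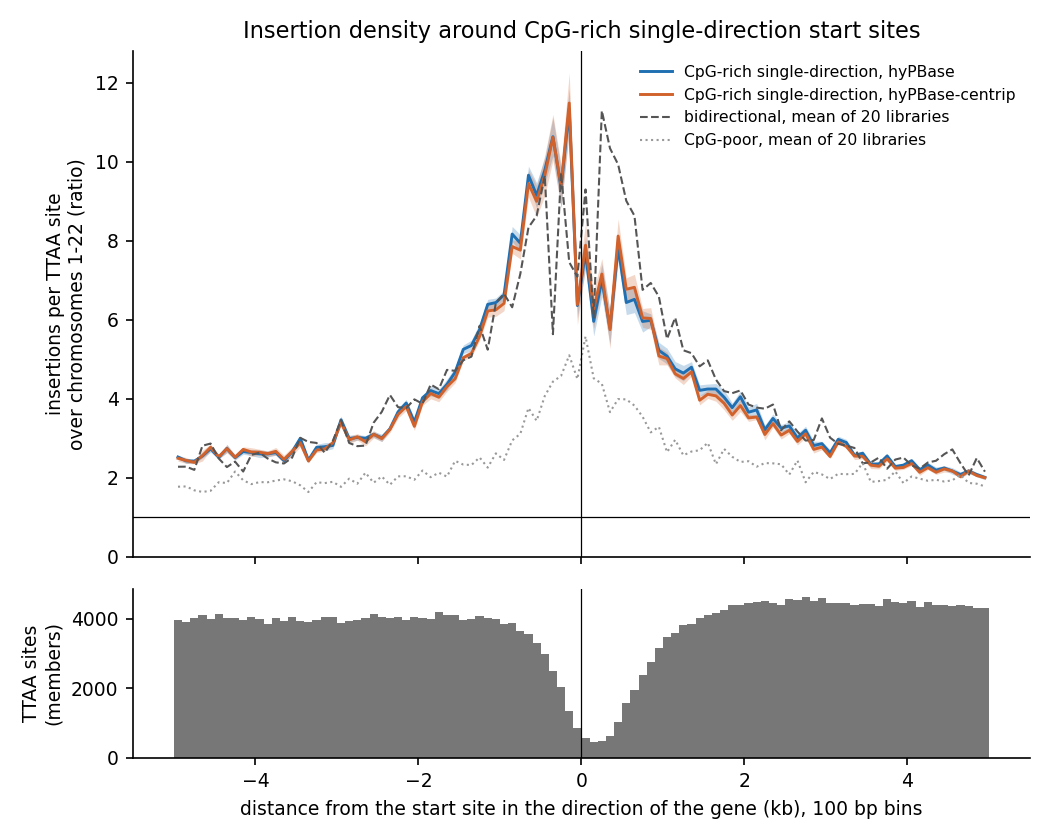
Insertions per TTAA site over the mean of chromosomes 1 to 22 (ratio, upper panel) and number of TTAA sites beside members (lower panel) in 100 bp bins from 5 kb upstream to 5 kb downstream. Lines are means over libraries and bands are ± 1 SD over 10 libraries. The enrichment at members is highest in the bin 200 to 100 bp upstream, at 11.3 with hyPBase and 11.5 with hyPBase-centrip, while TTAA sites are fewest 100 to 200 bp downstream (463).

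From about 100 bp upstream of the start site the density was lower again, and it stayed lower downstream. From 400 to 100 bp upstream the enrichment was 10.3 ± 0.465 with hyPBase and 10.4 ± 0.6005 with hyPBase-centrip over 5877 TTAA sites. From 100 bp upstream to 40 bp downstream it was 6.30 ± 0.300 and 6.37 ± 0.539 over 1090 sites. The log2 difference between these stretches was -0.72 ± 0.0402 and -0.71 ± 0.0543 (SD over 10 libraries), negative in every library (exact sign-flip p = 0.00195 in each helper). The limits of both stretches were chosen after the profile of the same libraries had been seen. The sign and p therefore describe the drop that prompted them and do not test it independently. From 40 to 400 bp downstream the enrichment stayed at 6.67 ± 0.354 and 6.79 ± 0.412 over 1916 sites.

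**Figure D2:**
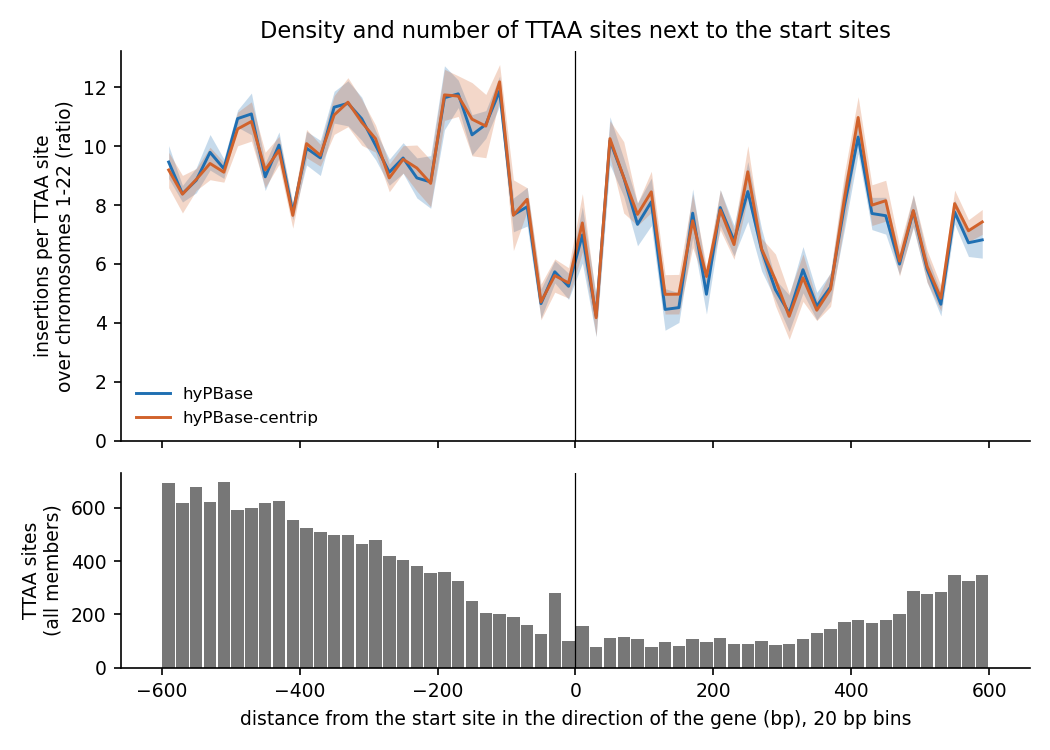
Enrichment (ratio, upper panel, mean and SD band over 10 libraries per helper) and number of TTAA sites (lower panel) in 20 bp bins within 600 bp of the member start sites. Enrichment drops from 11.9 (hyPBase) in the bin 120 to 100 bp upstream to 4.65 in the bin 60 to 40 bp upstream, and 279 TTAA sites crowd the bin 40 to 20 bp upstream.

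TTAA sites were not spread evenly over this stretch. The 20 bp from 40 to 20 bp upstream held 279 sites, against 126 in the 20 bp before and 100 in the 20 bp after. Of these, 230 lay 30 to 20 bp upstream, which is where a TATA box lies when a promoter has one, and 25.7% of the 230 were flanked as TTTAAA, against 16.8% of the sites within 1 kb of members. Enrichment at these 230 sites was 5.53 ± 0.472 with hyPBase and 5.45 ± 0.598 with hyPBase-centrip. It was 4.65 ± 0.496 and 4.71 ± 0.607 from 60 to 40 bp upstream, 6.71 ± 0.987 and 6.36 ± 0.905 from 40 to 30 bp upstream, and 5.24 ± 0.444 and 5.36 ± 0.517 from 20 bp upstream to the start site. The 230 sites lay within the range of their neighbours.

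The bases beside TTAA went with density both in the genome and at members, with TTTAAA the highest and GTTAAC the lowest of the 10 contexts in each. In the genome a TTAA within TTTAAA took 1.66 ± 0.00516 times the mean of all TTAA sites with hyPBase (SD, n = 10), and one within GTTAAC took 0.0941 ± 0.00205 times. Within 1 kb of members the same contexts took 12.7 ± 0.364 and 0.911 ± 0.0660 times the genome mean. The ratio of member to genome within a context ran from 7.58 ± 0.274 for TTTAAA to 10.2 ± 0.403 for ATTAAT (SD, all 20 libraries). The excess at members was present in each of the 10 flank contexts.

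The orientation of the insertions changed across the start site. The values below are same-strand shares: out of 100 insertions, those recorded in the orientation of the gene, so that 50% is an even split. The files give the orientation of each insertion by a symbol, and the sources used here do not say which end of the transposon it points to. Far upstream the share was 52.1% ± 0.280 with hyPBase and 51.9% ± 0.384 with hyPBase-centrip. In the near upstream window it was 41.2% ± 1.22 and 38.9% ± 1.13, and in the core 24.2% ± 1.01 and 23.4% ± 0.881. Beyond the start site it stayed low, at 28.5% ± 1.14 and 31.3% ± 0.721 near downstream and 25.3% ± 0.605 and 27.1% ± 0.672 far downstream (SD, n = 10 for all values).

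From 0.5 to 5 kb downstream the libraries ran from 25.3% over a median of 26.5% to 27.9% with hyPBase, and from 28.0% over 28.7% to 30.3% with hyPBase-centrip. From 0.5 to 5 kb upstream they ran from 45.2% over 46.6% to 47.4%, and from 43.5% over 45.5% to 46.0%. All libraries lay below 50% on both sides (exact sign-flip p = 0.00195 in each helper and on each side). The share was higher upstream than downstream by 19.97 ± 1.47 percentage points with hyPBase and 16.6 ± 1.35 with hyPBase-centrip, again in every library (exact sign-flip p = 0.00195 in each). The lowest 100 bp bin lay 200 to 100 bp upstream, at 20.1% with hyPBase and 19.8% with hyPBase-centrip.

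Single members spread widely around these means. Of the 5103 members with at least 50 insertions 0.5 to 5 kb downstream, 4205 (82.4%) had a same-strand share below 50%, and the median was 21.4% with quartiles at 6.56% and 43.2%. A share under 10% was found at 32.1% of them and a share over 90% at 1.02%. In the near upstream window the median over 3510 members was 37.0%, with 66.0% of them below an even split. The core had 1629 such members with a median of 14.2%.

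**Figure D3:**
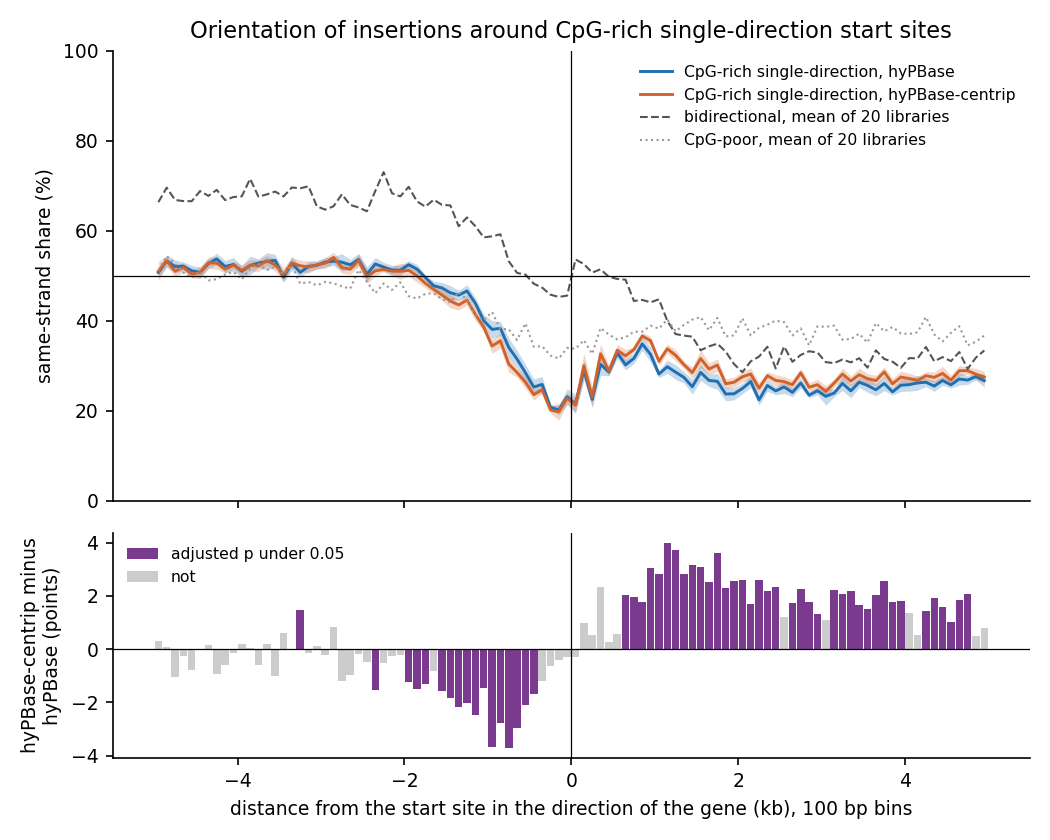
Same-strand share (%) in 100 bp bins from 5 kb upstream to 5 kb downstream of member start sites (upper panel, mean and SD band over 10 libraries per helper, with the comparison classes as means of 20 libraries) and the helper difference in percentage points (lower panel, dark where the adjusted p was under 0.05). The share falls from about an even split far upstream to 20.1% in the bin 200 to 100 bp upstream, and the helper difference is negative in 16 of the 17 upstream bins that passed and positive in all 38 downstream ones.

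The helpers differed more in orientation than in density. With hyPBase-centrip the same-strand share differed by -2.27 ± 0.5259 points near upstream (permutation test, adjusted p = 0.000567) and was 2.80 ± 0.428 points higher near downstream (adjusted p = 5e-05). It was also higher far downstream, by 1.78 ± 0.286 points (adjusted p = 5e-05), with the differences given with their SE. In the near and far downstream windows no library of one helper overlapped the other, while near upstream the groups overlapped. The core (-0.73 ± 0.425 points, adjusted p = 0.116) and the far upstream window (-0.25 ± 0.150, adjusted p = 0.116) did not pass the test. In the core the difference passed at -1.40 points with at least 2 reads per insertion (adjusted p = 0.0224), at -1.79 with stricter CpG and GC thresholds (adjusted p = 0.0022) and at -0.78 with reads rarefied to the smallest library (adjusted p = 0.0391). Over the 10 alternatives its adjusted p ran from 0.0022 to 0.538. Hence the contrast between near upstream and near downstream was 12.7 ± 2.33 points with hyPBase and 7.67 ± 1.77 with hyPBase-centrip (SD), and this contrast itself differed by -5.07 ± 0.925 points (SE, adjusted p = 0.00036 over 12 contrasts compared after the data were seen). Without replicate 3 of hyPBase-centrip the difference was -4.57 points. The contrast ran from 8.66 over a median of 13.1 to 15.9 points with hyPBase. With hyPBase-centrip it ran from 3.20 over 8.18 to 9.44, so the groups overlapped. Replicates 8 and 9 of hyPBase had shares of 39.3% and 38.9% near upstream and 30.5% and 30.2% near downstream. These replicates had the fewest insertions of their helper, 1774712 and 1509672, and its fewest reads, 5695100 and 4694029. Depth also differed between the helpers. A hyPBase library held on average 3.87 ± 0.732 reads per insertion, and a hyPBase-centrip library 3.00 ± 0.540 (SD over 10 libraries). Whether the same-strand share follows depth within a helper was not tested.

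**Figure D4:**
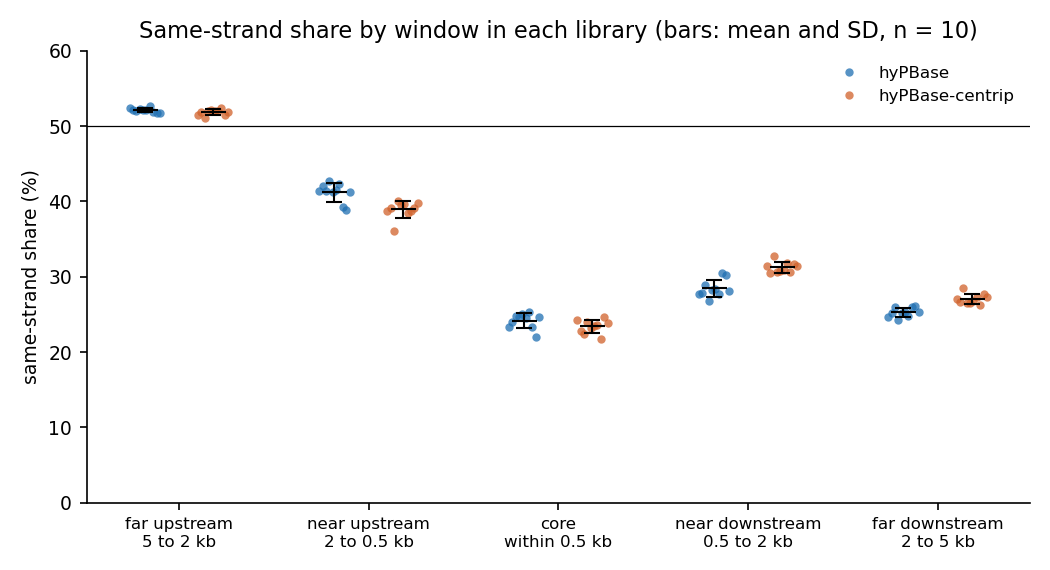
Same-strand share (%) of each library in the 5 windows around member start sites, with hyPBase in blue and hyPBase-centrip in orange, and the mean and SD in black (n = 10 per helper). Near downstream the hyPBase libraries lie between 26.8% and 30.5% and the hyPBase-centrip libraries between 30.6% and 32.8%, while near upstream the order is reversed and the groups overlap.

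In density the differences between helpers were small. Enrichment was lower with hyPBase-centrip near upstream (-0.164 ± 0.0503 SE, adjusted p = 0.013) and far downstream (-0.0737 ± 0.0177, adjusted p = 0.00385). Near downstream the difference was -0.103 ± 0.0456 (adjusted p = 0.0605), and in the core it was 0.0377 ± 0.189 (adjusted p = 0.849). Over the 100 bins of 100 bp, 12 (12%) passed the test for enrichment, all lower with hyPBase-centrip. This count was 20 without replicate 3 of hyPBase-centrip, 25 with the start of the canonical transcript, and 0 with at least 2 reads per insertion, with barcodes collapsed or with stricter CpG and GC thresholds. For the same-strand share 55 (55%) passed, of which 16 were lower and 1 higher on the upstream side and 38 were higher and none lower on the downstream side. The calls for enrichment near upstream and far downstream were lost with at least 2 reads per insertion (-0.0357 and -0.074), with barcodes collapsed (-0.155 and -0.0523) and with members weighted equally (-0.119 and -0.0386).

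Against CpG-poor start sites the members were clearly denser in insertions. Within 1 kb the CpG-poor class had an enrichment of 3.82 ± 0.102 with hyPBase and 3.85 ± 0.155 with hyPBase-centrip. The log2 difference was 1.05 ± 0.0231 and 1.02 ± 0.0159, with every library above 0 (SD, n = 10 each, exact sign-flip p = 0.00195 in each). Downstream, orientation was more one-sided at the members as well. From 0.5 to 5 kb downstream the same-strand share was 37.4% ± 0.560 and 38.4% ± 0.282 at CpG-poor start sites, which put the members -10.8 ± 0.379 and -9.59 ± 0.511 points from them (exact sign-flip p = 0.00195 in each). Near upstream the difference was small, at -0.93 ± 0.849 points with hyPBase (libraries from -2.73 to 0.32, exact sign-flip p = 0.00586) and -2.61 ± 0.542 with hyPBase-centrip (exact p = 0.00195). Values changed across the CpG threshold but less across the GC threshold. Single-direction start sites just inside the CpG limit (0.6 to 0.65, n = 541) had an enrichment of 6.08 ± 0.235 with hyPBase and those just outside it (0.55 to 0.6, n = 369) 4.11 ± 0.210. The bands of 55 to 57% GC (n = 587) and 53 to 55% GC (n = 449) had 9.91 ± 0.438 and 9.49 ± 0.319.

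Bidirectional start sites came close to the members in density and not in orientation. Their enrichment within 1 kb was 7.72 ± 0.245 with hyPBase and 7.92 ± 0.463 with hyPBase-centrip. The log2 difference of the members from them was 0.029 ± 0.0220 (exact sign-flip p = 0.00781) and -0.016 ± 0.0331 (p = 0.15, exact), so its sign was not the same for the helpers, and several alternatives turned it. The opposite start site that defines this class may lie on either side. Near upstream of bidirectional start sites the same-strand share was 61.8% ± 1.22 and 59.1% ± 0.795. The members lay -20.6 ± 0.442 and -20.1 ± 0.587 points from it (exact sign-flip p = 0.00195 in each). From 0.5 to 5 kb downstream the members were at -8.14 ± 0.286 and -7.85 ± 0.370 points (exact p = 0.00195 in each).

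A noncoding neighbour on the other strand went with more insertions. The rule bars protein-coding neighbours only, and 1793 members had a GENCODE lncRNA start site of the other strand within 1 kb. Their enrichment was 9.42 ± 0.269 with hyPBase and 9.39 ± 0.411 with hyPBase-centrip, against 7.42 ± 0.204 and 7.36 ± 0.257 at the other members. The log2 difference was 0.34 ± 0.0195 and 0.35 ± 0.0193 (exact sign-flip p = 0.00195 in each). The upstream same-strand share was -0.63 ± 0.378 and -1.10 ± 0.314 points from that of the other members. This small difference was negative in every library (exact p = 0.00195 in each), but the sign was not stable with hyPBase. There it was 0.27 points with the start of the canonical transcript, 0.10 with the nearest start site only and 0.073 with stricter CpG and GC thresholds. With hyPBase-centrip it was -0.17 with the canonical start and no longer passed.

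CpG content and GC content went with density in opposite directions among the members. The 2035 members with the lowest CpG observed/expected ratio had an enrichment of 6.91 ± 0.233 and the 2035 with the highest 8.87 ± 0.229 with hyPBase, a log2 difference of 0.36 ± 0.0314. With hyPBase-centrip this difference was 0.34 ± 0.0249. From the 2004 members of lowest to the 2049 of highest GC content the enrichment went from 8.94 ± 0.321 to 6.16 ± 0.260 with hyPBase, a log2 difference of -0.54 ± 0.0824, and with hyPBase-centrip the difference was -0.62 ± 0.0338. Each of these differences had 1 sign in all libraries (exact sign-flip p = 0.00195). Gene length went with both density and orientation. From the shortest to the longest genes, in 4 sets of nearly equal size, the enrichment with hyPBase was 7.36 ± 0.258, 8.19 ± 0.218, 8.72 ± 0.235 and 7.12 ± 0.199. From 0.5 to 5 kb downstream the same-strand share was 33.0% ± 0.727 with hyPBase in the 2035 genes up to 13773 bp long and 27.3% ± 1.05 in the 2035 genes from 92851 bp. In the genes of middle length it was 23.6% ± 0.615 and 24.7% ± 0.845.

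Short sequence motifs in the promoter went with density too. They were searched on both strands from 250 bp before to 50 bp after the start site, with the exception of TATAAA, and no motif holds another within it. CCGGAAG, the core of binding sites of ETS factors, was present in 1250 members (15.4%, against 11.9% of all promoters). Members with it had an enrichment of 10.2 ± 0.307 with hyPBase and 10.2 ± 0.555 with hyPBase-centrip, against 7.39 ± 0.201 and 7.31 ± 0.236 without it. TGACGTCA, the palindrome bound by CREB and ATF factors, was in 271 members (3.33%, against 2.30% of all promoters). Members with it stood at 8.92 ± 0.263 and 9.15 ± 0.416, against 7.84 ± 0.216 and 7.77 ± 0.287 without it.

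CCAAT, the box bound by NF-Y, was in 33.7% of members and 35.6% of all promoters, with an enrichment of 8.28 ± 0.241 and 8.22 ± 0.312 where present and 7.66 ± 0.200 and 7.60 ± 0.282 where not. GGGCGG, which SP1 binds, was in 78.7% of members and 52.6% of all promoters. Its presence went with slightly fewer insertions, 7.81 ± 0.209 and 7.71 ± 0.268 against 8.11 ± 0.278 and 8.16 ± 0.365. TATAAA on the gene strand, starting 40 to 20 bp upstream, was found in 113 members (1.39%, against 3.04% of all promoters). These had 5.74 ± 0.401 and 5.98 ± 0.656, against 7.90 ± 0.213 and 7.84 ± 0.287. All of these differences passed in both helpers (exact sign-flip, adjusted p = 0.00234 over 12 tests). AGATAA, a motif of GATA factors, was in 314 members (3.86%, against 8.71% of all promoters). Its difference in enrichment did not pass (adjusted p = 0.0533 with hyPBase and 0.328 with hyPBase-centrip, exact sign-flip). A match is a string of letters and no measured binding, and the motifs were chosen after the profiles had been seen.

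Single promoters ranged from none to 100 times the genome mean. Among the 6124 members with at least 3 TTAA sites within 1 kb, the enrichment had a median of 3.61, quartiles at 0.886 and 10.4, a 95th percentile of 28.1 and a maximum of 103 (means over 20 libraries). A value under 1 was found at 1642 of them (26.8%) and a value over 10 at 1581 (25.8%). CpG-poor start sites with as many TTAA sites had a median of 0.980, with 50.3% under 1, and bidirectional ones had a median of 4.40, with 16.3% under 1. The 612 members with the most insertions held 44.8% of the insertions of this set. Members took a similar order with the helpers (Spearman's rho = 0.977 across 6124 members, which are not independent replicates and share the genome-wide reference).

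REV3L, the catalytic subunit of the translesion polymerase zeta, led the list. Its start site is chr6:111483715 on the minus strand, and its 5 TTAA sites within 1 kb took 1423 insertions. The enrichment there ran from 94.4 over a median of 104 to 135 with hyPBase and from 85.5 over 96.8 to 122 with hyPBase-centrip. CD46, a membrane protein that restrains complement, followed with 4 sites at chr1:207752037. It ran from 72.5 over 100.1 to 129 and from 79.8 over 99.9 to 155. NAGLU, a lysosomal enzyme that degrades heparan sulfate, was next (chr17:42536241), from 82.7 over 91.4 to 119 and from 72.6 over 89.2 to 121.

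In all of these 3 members the ranges of the helpers overlapped widely. The rest of the leading 10 lay between 70.9 and 82.5 in the mean over 20 libraries. They were the homeobox gene HOXB9 (82.5), C6orf47 (80.4), the stress-responsive kinase OXSR1 (79.2), STMP1 (76.5), the Golgi protein GOLIM4 (73.9), the nucleolar RNA helicase DDX21 (72.6) and the mismatch repair exonuclease EXO1 (70.9). EXO1 stood out for its 9 TTAA sites, each of which was hit, with 1756 insertions in all. Orientation at these members did not follow 1 pattern, with a same-strand share from 23.3% at EXO1 to 59.7% at C6orf47 within 1 kb. Each library used 26 barcodes. If each line is a distinct combination of position, orientation and barcode, 1 TTAA can show at most 26 insertions per orientation in a library. Whether this limit affects the shares and the order of the densest members was not tested.

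At the other end, 269 of the 6124 members had no insertion in any library. Among the 1059 members with at least 10 TTAA sites within 1 kb there were 10 such cases, and the first 5 by chromosome name were H4C14, H4C15, CDH20, U2AF1 and C3orf14. At H4C14 and H4C15, which both encode histone H4, and at U2AF1, a splicing factor, every TTAA site had both of its 64 bp flanks repeated at another TTAA of chromosomes 1 to 22. The value 0 there cannot be told apart from reads that could not be placed. At CDH20, a cadherin gene at chr18:61333430, and at C3orf14, at chr3:62319015, none of the 10 sites was repeated. Of the 269 members without insertions, 47 had only repeated sites and 197 had none. All 47 members with only repeated sites were among those without insertions. Copy number of K562 was not measured here, and its part in these values was not tested.

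The gene lists cover a small part of the members and were not tested against the rest. Housekeeping lists lay above the median of all members (3.61). Of the ribosomal protein genes, 38 members with at least 3 TTAA sites had a median of 8.75, with 16 over 10 and 1 under 1. The proteasome list had 19 members with a median of 7.85, with 9 over 10 and none under 1. The transcription machinery and elongation list (19 members, median 7.68) and the cell cycle list (24 members, median 7.76) were similar, with 4 members under 1 in each.

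RPLP1, a protein of the ribosomal stalk, had an enrichment from 20.4 over 25.8 to 34.8 with hyPBase and from 26.5 over 29.5 to 39.6 with hyPBase-centrip. RPL13A ran from 22.3 over 28.7 to 36.6 and from 21.4 over 28.4 to 33.6. At RPL38, with 5 TTAA sites, a single insertion was found in all libraries together. Among the proteasome genes PSMD5 (29.7 in the mean) and PSMD12 (17.2) were the highest and PSMD1 (1.72) and PSMC5 (1.63) the lowest. At PSMD12 2.28% of the insertions within 1 kb had the orientation of the gene.

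CDT1, which licenses replication origins, led the cell cycle list. It ran from 20.4 over 34.4 to 49.5 with hyPBase and from 30.9 over 35.8 to 46.3 with hyPBase-centrip. The transcription factor E2F2 followed with 22.6 in the mean. MYCN, the neuronal relative of MYC, had no insertion at its 4 sites and MYBL2 had 1. In the transcription list GTF2E2, a TFIIE subunit, and CCNT1, a cyclin of the elongation factor P-TEFb, had 27.7 and 24.7. The acetyltransferase gene CREBBP and MLLT3 had 0.231 and 0.0515.

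The lists tied to this cell line were mixed. Of the heme synthesis and iron uptake genes, 9 members had a median of 6.12. TFRC, the transferrin receptor, was the highest, from 26.6 over 30.8 to 37.9 with hyPBase and from 17.9 over 25.02 to 38.3 with hyPBase-centrip. TMEM14C, a mitochondrial protein needed for heme synthesis, had 19.1 in the mean. HBA1 had 4 insertions at 3 sites and STEAP3, an endosomal ferrireductase, had 3 insertions at 3 sites. HBA1 has a near-identical neighbour in HBA2, and 1 of its 3 sites had repeated flanks, so its value is uncertain.

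Of the erythroid and blood regulators, 8 members had a median of 3.93. ETV6, a repressor of the ETS family, ran from 14.6 over 19.8 to 26.7 with hyPBase and from 11.3 over 18.02 to 22.9 with hyPBase-centrip. TAL1, a basic helix-loop-helix factor of the erythroid lineage, ran from 7.82 over 12.3 to 20.2 and from 6.30 over 10.2 to 22.6. None of the 174 insertions within 1 kb of TAL1 had the orientation of the gene. GFI1, a repressor with 18 sites, had 24 insertions, and LDB1, a cofactor that bridges GATA1 and TAL1 complexes, had none at 6 sites.

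**Figure D5:**
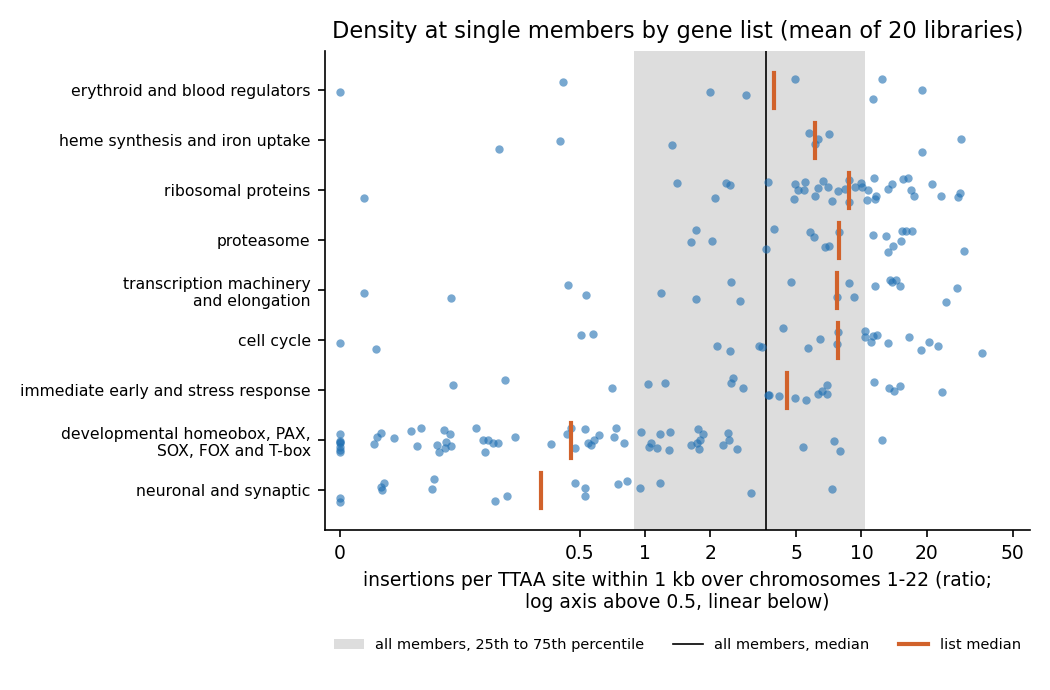
Enrichment within 1 kb of each member with at least 3 TTAA sites (points, mean over 20 libraries) in 9 gene lists, on an axis that is logarithmic above 0.5 and linear below. The ribosomal protein genes have a median of 8.75 and the neuronal and synaptic genes 0.419, beside 3.61 for all members.

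Immediate early and stress genes (22 members) had a median of 4.54, led by the chaperone gene HSPA1B (23.6) and JUN (15.1), with GADD45G (0.343) and DUSP6 (0.236) at the low end. Most members of the lists of developmental and neuronal genes had few insertions. The developmental homeobox, PAX, SOX, FOX and T-box list had 61 members with a median of 0.482, and 41 of them (67.2%) were under 1, against 26.8% of all members. This list leaves out the HOX clusters, so the densely hit HOXB9 is not in it. Its highest members were the T-box gene TBX18 (12.5) and DLX1 (8.002), while SIX2 and IRX4 had no insertion. Of 18 neuronal and synaptic members, 15 (83.3%) were under 1 and the median was 0.419. POU3F2, a neural POU factor, was the highest at 7.33, followed by the synaptic GTPase gene RAB3A at 3.07, and POU3F3 and POU4F2 had none. Over all sites of a list, the neuronal genes had an enrichment of 0.654 ± 0.213 (hyPBase) and 0.691 ± 0.211 (hyPBase-centrip), and the ribosomal genes 10.2 ± 0.674 and 10.7 ± 0.686 (SD over 10 libraries).

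Few single promoters passed the test for a difference between the helpers. Insertions within 2 kb of each protein-coding start site were compared with edgeR's quasi-likelihood test, and 5865 start sites passed the filter on low counts, of which 3008 were members. Of these members, 21 were higher with hyPBase-centrip (0.698%) and 58 were lower (1.93%), against 1.07% higher and 1.74% lower of all tested start sites (edgeR, Benjamini-Hochberg adjusted p under 0.05). The filter asks for at least 10 insertions in at least 10 libraries, so the other members, with few insertions, were not tested. Members were thus called about as often as all start sites. An unadjusted p under 0.05 was more common, at 980 of the 5865 start sites and 527 of the 3008 members (edgeR). The number that passed is thus no count of the promoters that differ. The CpG-poor class had 22 higher and 22 lower of 1679, and the bidirectional class 20 and 22 of 1178. Among the gene lists 2 members passed, both lower with hyPBase-centrip: the hematopoietic factor MYB, of 6 members tested in its list, and the cyclin CCNE1, of 17. So few calls say nothing of the lists.

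COA6, an assembly factor of cytochrome c oxidase at chr1:234373456, had the smallest adjusted p among the members. As normalised insertion counts (CPM, scaled to library size), its 28 TTAA sites within 2 kb held from 42.3 over 47.4 to 53.5 with hyPBase and from 32.6 over 36.0 to 42.1 with hyPBase-centrip. The groups did not overlap, and the log2 fold change was -0.36 ± 0.058 (SE, edgeR adjusted p = 2.27e-05). PABIR1, an inhibitor of protein phosphatase 2A, ran from 23.2 over 25.9 to 34.2 and from 14.7 over 19.4 to 24.5, with a log2 fold change of -0.46 ± 0.0807 (edgeR adjusted p = 0.000107). EIF4G2, a translation initiation factor, had -0.35 ± 0.0637, and RBM38, an RNA-binding protein, -0.80 ± 0.150. DSG2, a desmosomal cadherin, had -0.38 ± 0.0808.

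In the opposite direction OSR2, a zinc finger factor, ran from 8.56 over 11.6 to 15.1 with hyPBase and from 13.4 over 15.4 to 19.0 with hyPBase-centrip. Its groups overlapped slightly and the log2 fold change was 0.47 ± 0.101 (edgeR adjusted p = 0.00401). ME2, a mitochondrial malic enzyme, had 0.48 ± 0.105, CAMLG, which helps insert tail-anchored membrane proteins, 0.68 ± 0.159, STK4, a kinase of the Hippo pathway, 0.45 ± 0.113, and CENPJ, a centriole protein, 0.34 ± 0.0848. With 1 insertion per position and orientation, no start site of 3127 tested passed in edgeR and 33 had an unadjusted p under 0.05. These are fewer than a threshold of 0.05 gives by chance alone. The lack of calls in this setting, which caps the counts, therefore says little about the main calls. CAMLG and RBM38 were too sparse to be tested there. RBM38 was called in all 7 alternatives that tested it, CAMLG in 4 of 7 and STK4 in 5 of 10. The log2 fold change of CENPJ turned to -0.038 with barcodes collapsed. Of the 79 called members, 32 were also called with at least 2 reads per insertion, 18 with a window of 1 kb, 35 with a window of 5 kb and 20 with DESeq2. Leaving out replicate 3 of hyPBase-centrip left 12 members higher and 36 lower.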

How the data were processed

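The deposited files list, for each of 20 K562 libraries, 1 line per insertion with position on hg38, count of reads, orientation and barcode. The authors deposited these counts of reads without normalization. Their processing notes name Trimmomatic, BWA and SAMtools, and versions and filters are not given in the sources used here. All insertions lay on a TTAA. Each line was counted as 1 insertion, whatever its reads, and every library used 26 barcodes. Members, gene lists, windows and tests were chosen with earlier results of these data known.

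TTAA sites (18023956 on chromosomes 1 to 22) and start sites came from hg38 and GENCODE version 44. Distances run from the start site to the middle of the TTAA. A site near several start sites counted for each, and 30 members share their start site exactly with another member. Per-library values were compared between helpers by two-sided permutation tests with 100000 resamples (smallest p 1e-05), adjusted after Benjamini-Hochberg over 5 windows, 100 bins or 12 contrasts, and within a helper by exact sign-flip tests (smallest p 0.00195). The 12 contrasts, the motifs, the splits by CpG, GC and gene length and the stretches next to the start site were added after seeing the data. edgeR 4.0.16 in R 4.3.3 (TMM, quasi-likelihood) compared start sites that held at least 10 insertions in 10 or more libraries, and DESeq2 1.42.0 was an alternative. On simulated counts with 200 of 5865 start sites changed 1.5-fold, edgeR recovered 74.0% (95.7% among dense and 54.7% among sparse ones), and 7.50% of its calls were false. Python 3.11.15, numpy 2.4.6, scipy 1.17.1, pandas 2.3.3 and matplotlib 3.10.9 were used.

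Named members had at least 3 TTAA sites within 1 kb. They are the 10 densest, the 5 lowest with at least 10 sites (by chromosome name where tied at 0), for either direction the 5 of lowest adjusted p, and the 2 highest and 2 lowest of each list. MYB and CCNE1 were named after their values were seen. Sequences were read from hg38.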

Additional observations from a re-analysis of the deposited data

Results flagged for a closer look

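Replicate 3 of hyPBase-centrip lay apart from the other 9 libraries of its helper in several measures, being the one library at the edge with a gap to its neighbour above Dixon's 95% critical value. This replicate had the fewest reads of all 20 libraries, 3746826, and the fewest insertions of its helper, 1638175. Its enrichment within 1 kb of the members was 8.59, and the next library had 7.86. In the core it was 10.4 against 9.49, and far upstream 2.96 against 2.86. Members with an antisense lncRNA start site had 10.5 against 9.54, and those without one 8.05 against 7.43. The same gap was found at CpG-poor start sites, with 4.24 against 3.94, and at bidirectional ones, with 9.14 against 8.06. Its same-strand share was 36.0% in the near upstream window, where the next lowest library had 38.5%, and 43.5% from 0.5 to 5 kb upstream, against 45.1%. In all, 34 sets of 10 libraries were examined, of which chance would give about 1.7, about 1 set in 20. All 9 such sets involve this library, and they overlap in the insertions they count.

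The contrast of the same-strand share between the near upstream and the near downstream window differed between the helpers, by -5.07 points (permutation test, adjusted p = 0.00036). The difference of members from CpG-poor start sites also differed, by -1.68 points near upstream (adjusted p = 0.00036) and 2.05 points near downstream (adjusted p = 0.00036). In log2 enrichment within 1 kb the helpers differed by -0.024 in the contrast with CpG-poor start sites (adjusted p = 0.0316) and by -0.045 in the contrast with bidirectional ones (adjusted p = 0.00504). The contrast of the upstream same-strand share between members with and without an antisense lncRNA start site differed by -0.47 points (adjusted p = 0.0208). With the replicate number as a block, the contrasts of -0.024 and -0.47 no longer passed (exact sign-flip, adjusted p = 0.109 and 0.0844).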

How the results depend on the processing

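The enrichment and the orientation bias at members kept direction and significance within each helper under every alternative tried, as did the excess over CpG-poor start sites. The comparisons between helpers moved as follows, with differences given as hyPBase-centrip minus hyPBase. The cause was not tested. With at least 2 reads per insertion the enrichment difference was -0.0357 near upstream and -0.074 far downstream (both no longer passing), 0.0389 far upstream and 0.160 within 1 kb, 0 enrichment bins passed, and the core share difference was -1.40 points, now passing. The log2 contrasts were then 0.0167 between the near windows, -0.0244 against CpG-poor, -0.0405 against bidirectional and -0.0028 for antisense lncRNA, whose share contrast was -0.364.

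With barcodes collapsed, enrichment differed by -0.190 in the core, -0.155 near upstream and -0.0523 far downstream. The contrasts were -0.0072 (lncRNA, log2), -0.0096 (core to flanks, log2), -0.188 (lncRNA share) and 0.955 points (bidirectional, near upstream), 0 bins and 0 start sites passed, and the log2 fold change of CENPJ was -0.038. The members' log2 difference from bidirectional start sites was -0.0877 with hyPBase and -0.125 with hyPBase-centrip. For hyPBase-centrip it was 0.0568 against a local reference, -0.0359 with members weighted equally, 0.0434 for the nearest start site only, -0.0294 standardised for flanks, 0.165 at the canonical start and -0.0459 under stricter thresholds. For hyPBase it was 0.0098 with equal weights, 0.0157 standardised and 0.018 with stricter thresholds.

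Against the local reference the core difference was -0.014, far upstream -0.0203 and near downstream -0.0809. With equal weights, far downstream gave -0.0386, far upstream 0.0066 and near upstream -0.119. The nearest start site gave share contrasts of -0.377 (lncRNA) and -0.0225 (bidirectional, near downstream), and 0.101 for lncRNA with hyPBase. The canonical start gave -0.113 near downstream, lncRNA shares of 0.269 and -0.172, and 25 enrichment bins. Stricter thresholds gave enrichment differences of -0.0307 (core) and -0.181 (near downstream), contrasts of 0.0102 (near windows, log2), -0.436 (lncRNA share) and 1.13 (bidirectional, near downstream), a lncRNA share of 0.0728 with hyPBase, 0 bins and a core share of -1.79. Downsampling insertions gave -0.421 (lncRNA share) and 6 bins. Rarefying reads, chosen after seeing the data, gave 6 bins, 0.487 (bidirectional, near downstream), -0.780 (core share) and 97 start sites, 11 members higher and 26 lower.

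DESeq2 called 53 start sites (3 members higher, 17 lower). No filter gave 74 (7 and 21), a 1 kb window 71 (12 and 25), a 5 kb window 176 (15 and 75), and library size as a term 36 members higher and 84 lower. Without hyPBase-centrip replicate 3 the core difference was -0.0983, the bidirectional near upstream contrast 0.608, 20 enrichment bins passed, and 12 members were higher and 36 lower. No other single library was left out.

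The replicate numbers do not pair the libraries, since deviations of same-numbered libraries correlated between -0.0536 and 0.102 and 2 of 10 matched best with their own number. The replicate block gave 161 start sites, 12 enrichment bins and 44 share bins. Under it the near downstream difference of -0.103 passed, and the contrasts of -0.024 (CpG-poor, log2) and -0.465 (lncRNA share) did not. Of the 8138 members, 3008 held enough insertions to be tested singly.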
